A study of Homo sapiens with 58 samples.

Results

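Gene expression at 300, 330 and 360 min of a presomitic mesoderm time course was compared with that at 210, 240 and 270 min. These 12 libraries, 6 in the later and 6 in the earlier window with 2 at each time, were taken by their labelled times from 58 in the series. All are H1, an established wild-type human embryonic stem cell line, used at passage 30 to 40 and sequenced from total RNA. The labels call the course presomitic mesoderm and give the medium of that stage, which held 3 µM CHIR99021 (a Wnt activator), 100 ng/mL FGF2, 100 ng/mL NOGGIN (a BMP antagonist) and 2 µM A83-01, which blocks receptors of activin and nodal. It followed 24 h in 100 ng/mL activin A with 3 µM CHIR99021. The somite medium they describe blocked MEK with PD0325901 (1 µM) and Wnt signalling with IWR1 (2.5 µM), and kept both A83-01 and NOGGIN. Neither the medium of the course nor what happened at its zero point is given in the labels, and all 12 libraries are of a single cell line. The 34 other course libraries, from 30 to 690 min, and the 12 libraries of a daily series (Day0 to Day3) were used only where named.

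Presomitic mesoderm is the tissue from which somites, the segments of the trunk, bud off in sequence. Within it a clock of Notch pathway genes and of the repressor HES7 oscillates, while cells that leave its posterior zone lose FGF and Wnt targets such as T (brachyury) and begin to make segment boundary genes such as MESP2 and RIPPLY2, then somite genes such as TCF15 and MEOX1. Processed copies, also called retrocopies, are genes that arose when the messenger RNA of a parent gene was copied back into the genome, so that they resemble the parent's spliced transcript.

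Totals of expected counts (estimated read counts per gene) ran from 3.17 to 4.69 M in the early and from 3.01 to 5.72 M in the late libraries. A level is given as CPM, a count relative to the total of its library, scaled by TMM over the 46 course libraries. A count of 0 allows up to 3 counts, or 0.524 to 0.995 CPM in these libraries, for counting error only. The labels do not name replicates as separate cultures, and the p-values speak only to how much libraries varied, whether from technical or biological sources. Markers of the labelled cell type were present: DLL1 had a median of 552 CPM early and 663 late, DLL3 279 and 358, RSPO3 164 and 160, TBX6 31.7 and 43.6, and MSGN1 10.7 and 5.65. The endoderm markers SOX17 and FOXA2 and the endothelial marker CDH5 had a median of 0 CPM in both windows. PECAM1, the other endothelial marker, had a median of 0.691 CPM early and 0.843 late. Neural markers were not absent, with MAP2 at 69.4 and 25.9 CPM.

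Between the windows 1662 of 11250 tested genes passed an adjusted p of 0.05 (edgeR quasi-likelihood F test), which is 14.8% of them. Of these 659 (5.86%) were higher and 1003 (8.92%) lower in the later window, 69 and 165 by 2-fold or more. The 6 late libraries did not overlap the 6 early ones for 744 genes (6.61%), of which 2.44% of all tested were higher and 4.18% lower. The median log2 difference over all tested genes was 0.03. On the deposited TPM values, tested with limma as log2(TPM + 1), the balance turned, with 933 higher and 642 lower and a median of 0.12. The median difference of every list described below as higher or lower kept its sign there.

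Of 21 tested presomitic mesoderm genes 8 were higher and 2 lower, with a median log2 difference of 0.25, and 6 to 10 were higher when each library was left out in turn. PCDH8, a protocadherin of the segment boundary also called PAPC, had a lowest, median and highest level of 67.4, 87.9 and 118 CPM in the early libraries and 153, 272 and 489 CPM in the late. Every late library lay above every early one, and the log2 difference was 1.72 (SE 0.17, adjusted p = 2.27e-08). RIPPLY2, a repressor that ends TBX6 activity at the boundary, ran at 11.2, 18.8 and 33.0 CPM and then at 48.8, 64.5 and 117 CPM. Its windows did not overlap either, with a log2 difference of 1.81 (SE 0.22, adjusted p = 7.11e-07). RIPPLY1, its relative in the young somite, had 1 to 4 counts in each early library and 13 to 124 in each late one. Its early median of 0.70 CPM is within the limit that a count of 0 allows, so the log2 difference of 4.29 (SE 0.54, adjusted p = 9.98e-07) starts from a barely detected level.

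Among the regulators of somite identity, MEOX1, a homeobox gene, ran from 11.5 to 36.6 CPM early (median 18.4) and from 41.0 to 72.4 late (median 46.9), without overlap (log2 1.30, SE 0.21, adjusted p = 3.96e-05). TCF15, a bHLH factor needed for epithelial somites, had a median of 51.1 CPM early and 119 late (log2 1.078, SE 0.17, adjusted p = 3.72e-05). Its windows overlapped, because the lower library at 300 min (59.3 CPM) lay within the early range of 36.1 to 68.5. The forkhead gene FOXC2 rose from a median of 10.3 to 25.3 CPM without overlap (adjusted p = 1.83e-05). SOX9, a cartilage and sclerotome regulator, rose from 32.0 to 84.0 CPM (log2 1.36, SE 0.14, adjusted p = 3.20e-08). In the somite list 6 of 13 tested members were higher and 3 lower, with a median log2 difference of 0.56. The 3 lower were the activin antagonist FST, the cadherin gene CDH11 and PAX3, a gene of the dermomyotome and neural crest, whose call was lost in 9 alternatives. MESP2, which sets the segment boundary, had a median of 9.27 CPM early and 18.7 late, in overlapping ranges (log2 0.78, SE 0.27, adjusted p = 0.0516). It passed in 10 of the alternatives, with an adjusted p down to 0.0115 and a log2 difference up to 1.19.

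**Figure D1:**
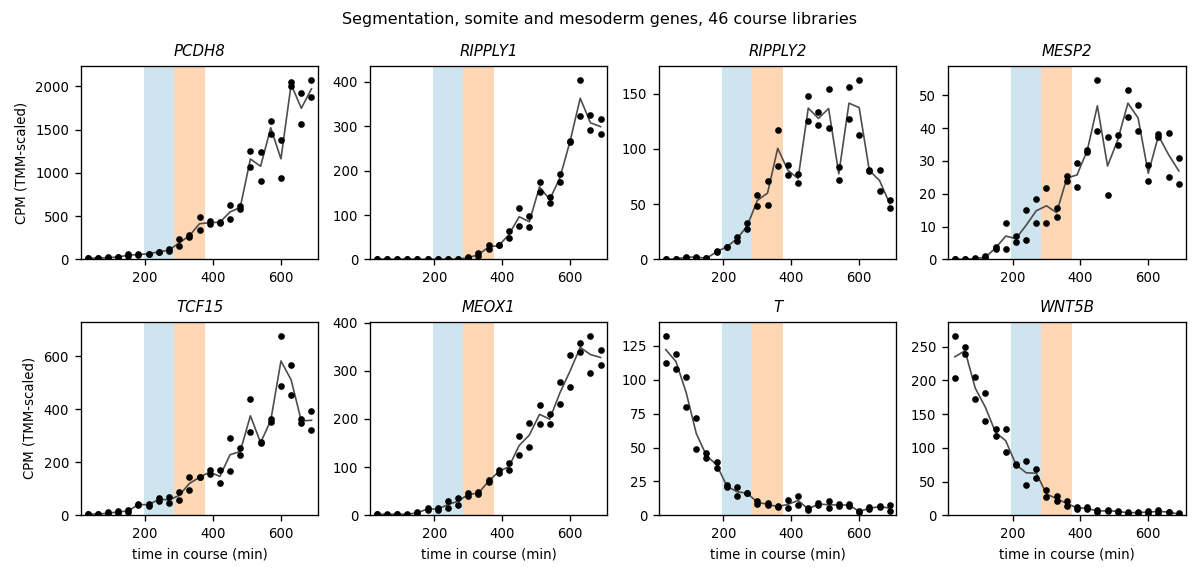
Level (CPM, TMM-scaled, linear axis from 0) against time in the course for 8 mesoderm genes; each point is a library, the line joins the means of 2 libraries, blue shading marks 210 to 270 min and orange 300 to 360 min. RIPPLY2, TCF15 and MEOX1 climb through both windows, PCDH8 climbs in both and goes from a mean of 108 to 193 CPM between 270 and 300 min, RIPPLY1 appears in the later window, and T and WNT5B were already falling before 210 min.

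The Notch pathway moved by smaller amounts. JAG1, a Notch ligand, ran at 95.1, 104 and 117 CPM and then at 142, 195.2 and 226 CPM (lowest, median, highest), with no overlap (log2 0.84, SE 0.11, adjusted p = 1.32e-06). The receptor gene NOTCH2 rose from a median of 65.8 to 100 CPM (adjusted p = 1.02e-04). The ligand genes DLL1 and DLL3 rose by 0.25 and 0.34 log2 (adjusted p = 0.0343 and 0.0073), and LFNG, the glycosyltransferase that tunes Notch, by 0.37 (adjusted p = 0.02). The call of DLL1 was lost in 8 alternatives, 7 of them leaving out 1 library (adjusted p of 0.0521 to 0.0853), and its sign turned in 1. The windows of all 3 overlapped. HES7 itself had 8.03, 11.2 and 13.3 CPM early and 5.63, 10.8 and 20.3 CPM late. Its log2 difference of 0.17 (SE 0.27, adjusted p = 0.738) did not pass, and with 24 to 116 counts a library its standard error was as large as the change of DLL1. Of 20 tested clock and Notch genes 9 were higher and 2 lower, with a median of 0.33. The lower ones were HES1 (log2 -1.29, adjusted p = 0.00444) and RBPJ (log2 -0.34, adjusted p = 0.0441), which encodes the DNA-binding partner of Notch.

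Among genes of the posterior zone and of FGF signalling some fell and others did not pass. T, the brachyury gene, had 13.9, 18.6 and 22.3 CPM in the early window and 6.08, 7.84 and 10.8 CPM in the later, without overlap (log2 -1.21, SE 0.22, adjusted p = 2.11e-04). The Wnt ligand gene WNT5B went from a median of 71.6 to 23.7 CPM (log2 -1.44, SE 0.17, adjusted p = 3.91e-07), also without overlap. IL17RD, a feedback inhibitor of FGF signalling also called SEF, went from 84.9 to 37.9 CPM (log2 -1.01, adjusted p = 1.30e-04). The list of FGF and ERK targets had 7 of 14 tested members lower and 3 higher, with a median of -0.82. ETV1, an ETS factor that FGF induces, dropped from a median of 9.67 to 1.87 CPM (adjusted p = 3.96e-05). The higher members were the feedback inhibitor SPRY1, whose median rose from 13.3 to 30.7 CPM, the ERK phosphatase gene DUSP5 (157 to 295 CPM) and PHLDA1. Wnt targets were divided, 4 of 16 higher, among them LEF1 (104 to 152 CPM) and AXIN2, and 2 lower, T and CDX1. RSPO3, a Wnt agonist of the posterior zone, did not pass (log2 -0.18, adjusted p = 0.285), nor did MSGN1 (log2 -0.81, adjusted p = 0.0641) or TBX6 (log2 0.40, adjusted p = 0.136). TBX6 was at 21.9 CPM in 360 min replicate 2 and at 40.8 to 48.7 CPM in the 5 other late libraries.

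T-box factors such as TBX6 and T bind sites with the core AGGTGT. This core was looked for on both strands of the 250 bases before the annotated start in RefSeq promoters (GRCh38.p14), where 9.57% of 35116 promoters hold it. MESP2 holds it at 2 places, shown here in capitals as the complement ACACCT, and is printed because it is the gene of the segment boundary group with such a match. The windows of RIPPLY1, PCDH8, JAG1, HES7 and both starts of RIPPLY2 hold none, which says only that these letters are not there. The MESP2 window lies on the plus strand at chr15:89776082-89776331.
MESP2: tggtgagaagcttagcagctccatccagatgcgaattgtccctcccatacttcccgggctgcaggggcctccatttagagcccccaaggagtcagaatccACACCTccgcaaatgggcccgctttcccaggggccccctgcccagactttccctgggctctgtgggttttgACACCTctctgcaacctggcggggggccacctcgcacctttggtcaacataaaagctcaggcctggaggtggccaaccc

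Of 16 tested processed copies 12 were lower and none higher (edgeR; of all tested genes 8.92% were lower and 5.86% higher), with a median log2 difference of -1.48 against 0.03 over all tested genes. RPL10L, a copy of the ribosomal protein gene RPL10 on another chromosome and known from testis, ran at 118, 165 and 255.8 CPM early and at 43.6, 53.1 and 80.6 CPM late. No late library reached the lowest early one (log2 -1.68, SE 0.16, adjusted p = 1.05e-08). RPL10 had 379 CPM early and 374 late in the median (log2 -0.05, adjusted p = 0.791), so that RPL10L made up 25.0 to 40.01% of the pair in the early and 9.83 to 15.8% in the late libraries. PPIAL4G, a copy of the cyclophilin A gene PPIA, ran at 124, 215 and 347 CPM and then at 43.7, 57.9 and 78.9 CPM, again without overlap (log2 -2.00, SE 0.18, adjusted p = 3.65e-09). PPIA fell by 0.28 log2 (SE 0.07, adjusted p = 0.0088).

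How far a copy can be told from its parent depends on how much they differ, so the first 120 coding bases of each pair are shown (GENCODE release 29 transcripts), with the bases that differ in capitals. RPL10L and RPL10 differ at 15 of these, and at 69 of all 642 coding bases.
RPL10L: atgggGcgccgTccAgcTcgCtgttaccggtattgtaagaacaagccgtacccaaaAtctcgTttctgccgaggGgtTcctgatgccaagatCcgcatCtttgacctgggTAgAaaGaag
RPL10: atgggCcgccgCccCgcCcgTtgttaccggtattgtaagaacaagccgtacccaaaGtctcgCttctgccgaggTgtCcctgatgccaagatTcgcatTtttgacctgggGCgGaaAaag
PPIAL4G and PPIA differ at 19 of the first 120 bases.
PPIAL4G: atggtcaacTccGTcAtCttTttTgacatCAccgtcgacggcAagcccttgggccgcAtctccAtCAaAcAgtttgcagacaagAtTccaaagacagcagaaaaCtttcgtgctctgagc
PPIA: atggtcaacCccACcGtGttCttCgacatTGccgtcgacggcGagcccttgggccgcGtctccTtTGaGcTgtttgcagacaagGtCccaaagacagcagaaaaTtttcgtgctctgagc
The differences of RPL10L are spread so that 4.09% of its 31-base coding words occur in any other listed gene. For PPIAL4G, which has close relatives of its own, it is 83.1%, so its counts are uncertain.

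Other copies moved alike. HNRNPA1L2, a copy of the splicing factor gene HNRNPA1, ran at 237, 400 and 608 CPM early and at 125, 146 and 174 CPM late (log2 -1.53, SE 0.15, adjusted p = 1.07e-08), while HNRNPA1 stood at 9067 and 9163 CPM in the median (adjusted p = 0.998). SUMO4, a copy of the ubiquitin-like SUMO2, went from a median of 13.5 to 2.66 CPM (adjusted p = 1.31e-05), and SUMO2 fell by 0.44 log2 (adjusted p = 7.52e-04). H3F3C, a copy of the histone H3.3 gene H3F3B, went from 35.5 to 11.7 CPM (adjusted p = 3.08e-06). PABPC3, from the poly(A)-binding PABPC1, went from 28.0 to 7.96 CPM (adjusted p = 7.61e-06). PGK2, from the glycolytic PGK1, went from 28.4 to 7.22 CPM (adjusted p = 1.45e-05), and here the parent fell too, by 0.73 log2 (SE 0.09). GLUD2, PGAM4, CSNK1A1L, TAF1L and DHFRL1 also fell. Shared coding words make several of these uncertain: 60.5% for PGAM4, 56.1% for HNRNPA1L2, 55.7% for GLUD2, 42.9% for H3F3C, 33.8% for TAF1L and 24.4% for PABPC3, against 5.88% for SUMO4 and 1.72% for PGK2. The 4 that did not pass were RBMXL1, CSTF2T, UTP14C and RPL36AL. HSPA6, an intronless heat shock gene that is not on the copy list, fell with the copies, from 78.8, 128 and 221 CPM to 27.2, 34.4 and 40.6 CPM (log2 -2.06, SE 0.18, adjusted p = 3.65e-09). It shares 0.74% of its coding words with other genes. Of the 28 parents 12 were lower and 1 higher, with a median of -0.27.

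**Figure D2:**
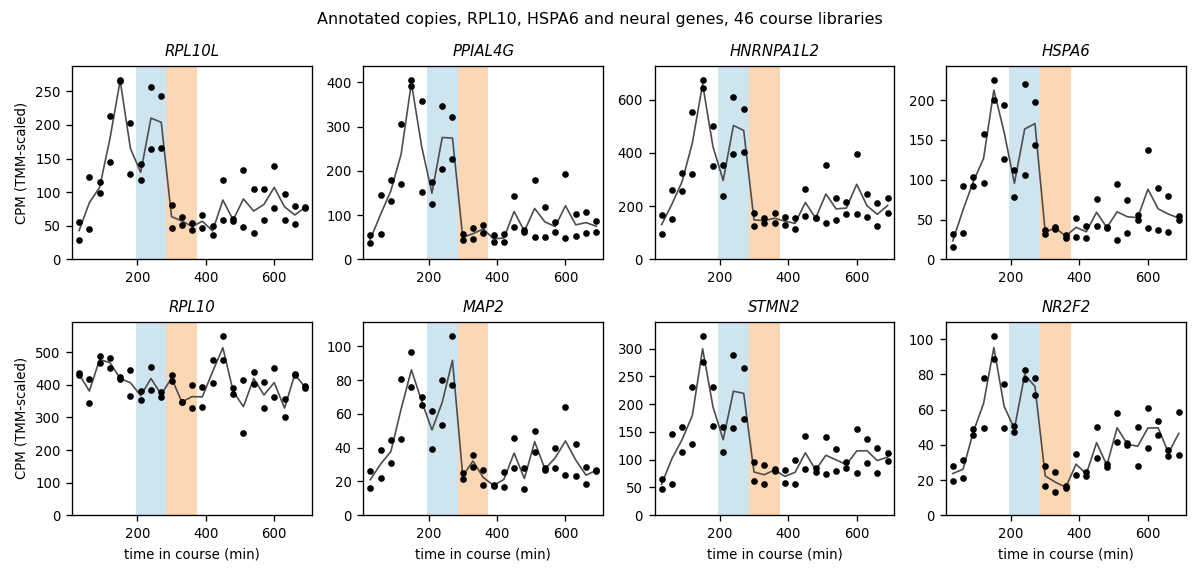
Level (CPM, TMM-scaled, linear axis from 0) against time for 3 processed copies, RPL10, HSPA6 and 3 neural genes; points are libraries, lines join the means of 2, and shading marks the windows as in the plot of mesoderm genes. RPL10L, PPIAL4G, HNRNPA1L2, HSPA6, MAP2 and STMN2 climb to 150 min, sink to 210 min, are high again at 240 and 270 min and drop at 300 min; RPL10L goes from 204 to 63.7 CPM there and MAP2 from 91.7 to 23.3.

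Neural genes fell in the same libraries. STMN2, a tubulin-binding protein of growing neurites, ran at 114, 166 and 289 CPM early and at 55.6, 81.6 and 95 CPM late (log2 -1.33, SE 0.17, adjusted p = 9.57e-07). MAP2, a dendritic microtubule protein, ran at 39.5, 69.4 and 106 CPM and then at 17.7, 25.9 and 35.6 CPM (log2 -1.43, SE 0.18, adjusted p = 1.26e-06). Neither gene overlapped between the windows. NR2F2, a nuclear receptor also known as COUP-TFII and also made outside the nervous system, went from a median of 72.9 to 16.6 CPM (log2 -1.82, SE 0.17, adjusted p = 1.07e-08). SOX2, a factor of stem cells and neural progenitors, went from 47.6 to 15.7 CPM (log2 -1.60, SE 0.19, adjusted p = 4.05e-07), whereas the stem cell factor POU5F1 did not pass (163 and 153 CPM, adjusted p = 0.385).

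Of 20 tested neuronal genes 12 were lower and 2, CRMP1 and NCAM1, higher, with a median of -0.90. Of 12 neural progenitor genes 7 were lower, among them the transcription factor genes ZIC1, SOX1 and PAX6, and 1, the intermediate filament gene NES, was higher (1859 to 2915 CPM). The summed level of the progenitor list, NES included, was 1363 to 2727 CPM early and 2294 to 3612 late. The sum of the neuronal list was 1002 to 1456 CPM early and 899 to 1015 late. In bulk RNA fewer cells of a type and less RNA per cell cannot be told apart. In the same libraries the copy index, the mean centred log2 CPM of the tested copies, was 0.299 to 1.16 early and -0.828 to -0.329 late. Outside the windows the index did not separate earlier from later libraries. It ran from -0.938 to 1.30 before the windows and from -0.927 to 0.648 after them. Replicates 1 and 2 of a time could differ, as at 600 min (-0.534 and 0.648), or lie close, as at 480 min (-0.348 and -0.382). Whether the neural genes and the copies share a source was not tested. The processing notes name a mouse build, mm8, beside hg19 without its role, and whether any of these counts come from mouse sequence was not tested.

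**Figure D3:**
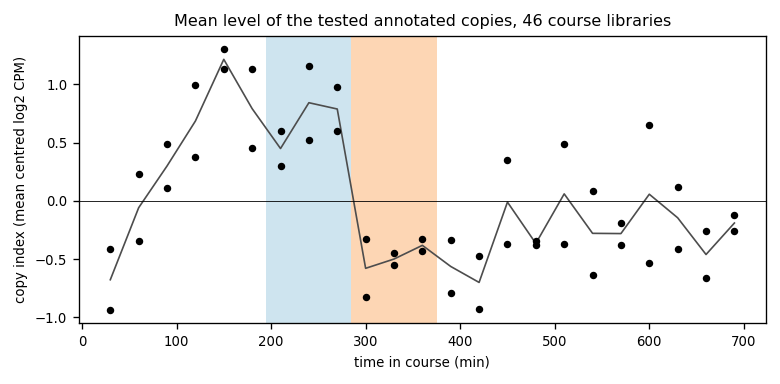
Copy index (mean centred log2 CPM of the tested annotated copies) against time; each point is a library, the line joins the means of 2, and shading marks the windows. The 6 early libraries lie between 0.299 and 1.16 and the 6 late ones between -0.828 and -0.329. Libraries before the windows range from -0.938 to 1.30 and those after them from -0.927 to 0.648. Replicates 1 and 2 lie apart at 510 min (0.488 and -0.368) and 600 min (-0.534 and 0.648), and close together at 480 min (-0.348 and -0.382).

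Of 78 cytosolic ribosomal protein genes 35 were lower and 1, RPS2, higher, with a median of -0.19, where 8.92% of all tested genes were lower. RPL30 ran at 209, 331 and 417 CPM and then at 134, 170 and 205 CPM (log2 -0.97, SE 0.12, adjusted p = 9.95e-07), and RPL5 went from a median of 2743 to 1838 CPM. Ribosomal protein genes took 5.6 to 6.76% of counts early and 4.91 to 6.24% late. Of 12 heat shock genes 5 were lower, among them HSP90AB1 (7005 to 5555 CPM) and HSPA8 (2872 to 2135 CPM). The higher one, HSPA1B, shares 95.7% of its coding words with other genes and is uncertain. Of 18 G1/S genes 5 were lower, among them the replication clamp gene PCNA (276 to 197 CPM), and of 18 G2/M genes 1, CENPE, was higher. Respiratory chain (1 higher and 2 lower of 40), glycolysis (1 and 2 of 19) and cholesterol synthesis (2 and 1 of 20) had shares near the background.

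Of 6 tested neural crest genes 2 were higher and 1 lower, with a median log2 difference of 0.33. The summed level of the list was 262.6 to 399.5 CPM early and 437.5 to 562.8 late. SNAI2, a repressor of epithelial genes, rose from a median of 195.3 to 349 CPM and PAX3 fell. Remaining lists had few tested members and few calls. Amino acid and ER stress genes had 3 of 16 lower, immediate early genes 2 higher and 1 lower of 11, BMP and TGFβ targets 2 lower of 12, retinoic acid genes 1 higher and 1 lower of 9 and HOX genes 1 lower of 11. Definitive endoderm genes had 1 higher of 3 tested (median log2 0.06), and endothelium and blood genes 1 higher of 3 (median 0.61).

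Tested genes were split into quartiles of effective length, the number of positions a fragment can start from. From the shortest to the longest quartile 11.4, 8.61, 7.57 and 8.03% were lower, and 3.84, 4.8, 5.94 and 8.85% higher. The part of length in the group differences was not tested.

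To separate an abrupt change from a steady one, 2 terms were fitted together to the 12 libraries: a step between 270 and 300 min, and a steady change per 90 min, the distance between the centres of the windows. The step passed for 261 genes (2.32%), 30 higher (0.267%) and 231 lower (2.05%). The steady term passed for 5 (0.0444%), 3 higher (0.0267%) and 2 lower (0.0178%). Without 270 min replicate 2 the steps numbered 4 higher and 52 lower, and without 210 min replicate 1 14 and 126. Without 210 min replicate 2 there were 15 steps up, without 270 min replicate 1 5, and without 240 min replicate 1, 300 min replicate 1 or 300 min replicate 2 60, 72 and 59. Without 360 min replicate 2 neither direction of the steady term had a call. For the 1003 genes lower between the windows the median step was -0.66 and the median steady term 0.15, and the step was the larger of the terms in 943. For the 659 higher genes the medians were 0.49 and 0.05, with the step the larger in 506. These genes were picked by the window difference in the same libraries, and the step is that difference less the steady term. The choice therefore favours the step, and these counts do not show how abrupt the changes were. In simulated data of this size 29 of 100 genes with a true step of 1 log2 unit and 36 of 100 with a true steady change of 1 log2 unit passed, with 2 and 0 false calls. Each simulated gene varied independently. In the early libraries the copy index ran from 0.299 to 1.16, so genes here did not all do so, and those false calls may not carry over.

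PPIAL4G had a step of -2.98 (SE 0.31, adjusted p = 4.47e-07), with a steady term of 1.02 that did not pass (adjusted p = 0.341). HSPA6 (-2.57, adjusted p = 5.62e-05), HNRNPA1L2 (-2.07, adjusted p = 5.62e-05), MAP2 (-2.11, adjusted p = 4.83e-04), STMN2 (-1.87, adjusted p = 8.49e-04) and RPL10L (-1.90, adjusted p = 5.73e-04) also had a step. Of the copies 8 of 16, 4 of 20 neuronal, 3 of 12 neural progenitor and 11 of 78 ribosomal protein genes had a step down, and no copy, neuronal or neural progenitor gene passed for a step up. A step down was also called in 3 of 14 FGF and ERK targets. Steps of low genes included those of DAB1, a neuronal adaptor (-3.60, from a median of 13.4 to 1.90 CPM), EEF1A2, the translation factor of nerve and muscle (-3.42), and NR2F1 (-3.31), which have a mean of 10 CPM or more only in the early window. Steps up included those of PDGFRB, a receptor of mesenchyme (1.43, adjusted p = 0.0303), PBXIP1 (1.45, adjusted p = 0.0104) and XIRP1, a muscle actin-binding protein (1.61, adjusted p = 0.0486), and these 3 genes did not overlap between windows. COL11A1 (step 1.58, adjusted p = 0.0176) and CEP164 (1.52, adjusted p = 0.0303) also had a step up. Neither passed between the windows (edgeR adjusted p = 0.0937 and 0.331). COL11A1 had means of 105, 91.3 and 36 CPM at 210, 240 and 270 min and 102 CPM at 300 min. CEP164 had 33.3, 25.3, 16.5 and 35.5 CPM at these times. Of genes with the step as their only called term, 17 were higher between the windows, 224 lower and 19 not called. NPIPL3, from a family of near-identical genes, had a step of 4.22 but ranged from 0 to 78.0 CPM within the early libraries, and is uncertain.

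The steady term passed for PCDH8 (1.37 per 90 min, SE 0.20, adjusted p = 0.00147; step 0.31, adjusted p = 0.567) and RIPPLY2 (1.68, SE 0.26, adjusted p = 0.00215; step 0.17, adjusted p = 0.841). It passed downward for TMEM132C (-0.93, adjusted p = 0.0224) and PREX1, an activator of Rac (-1.20, adjusted p = 0.0307). TEX101 (2.27, adjusted p = 0.0307), which also had a step down (-2.10, adjusted p = 0.0285), passed with levels of 287 and 553 CPM at 360 min against 64.5 to 138 CPM in the 4 other late libraries. MEOX1 (1.36), TCF15 (1.15) and RIPPLY1 (3.26) had steady terms that missed the threshold (adjusted p = 0.119, 0.129 and 0.14), that of RIPPLY1 from an early level near the limit of detection.

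A wider fit of the same terms, over the 24 libraries from 120 to 450 min, was added after these results were seen. It called 398 steps, 71 higher (0.633%) and 327 lower (2.92%), and 191 steady changes, 124 higher (1.11%) and 67 lower (0.597%), with 5 genes in both. Of the 261 genes with a step in 12 libraries 199 had one here too. Steady changes passed in 7 somite genes upward and 1 downward of 13, 4 and 5 of 21 presomitic genes, and 4 and 2 of 20 clock and Notch genes. MEOX1 (1.34 per 90 min, SE 0.13, adjusted p = 2.24e-09; step -0.01), TCF15 (1.01, adjusted p = 1.19e-06), MESP2 (1.26, adjusted p = 1.52e-05) and JAG1 (0.56, adjusted p = 1.52e-05) had a steady rise. RIPPLY1 passed for the steady term too (2.18, adjusted p = 2.83e-08), but its mean stayed at 0.439 to 0.991 CPM from 120 to 270 min and then went to 4, 10.9 and 28 CPM, and its difference between 270 and 300 min passed (log2 2.40, adjusted p = 0.0242). WNT5B (-1.07, adjusted p = 1.57e-09), IL17RD (-0.99, adjusted p = 1.57e-09), T (-0.79, adjusted p = 0.00193), MSGN1 (-0.86, adjusted p = 0.00158) and RSPO3 (-0.45, adjusted p = 0.00134) fell steadily. Steps down passed in 8 of 16 copies, 8 of 20 neuronal, 5 of 12 neural progenitor and 15 of 78 ribosomal protein genes, and no copy passed for a steady change. Of 14 FGF and ERK targets 3 had a step down, and steady changes passed in 1 upward and 3 downward. ETV1 had a step of -2.30 (adjusted p = 0.0166) and a steady term of -0.07 that did not pass. PCDH8 passed for both terms (step 0.73, adjusted p = 0.0206).

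**Figure D4:**
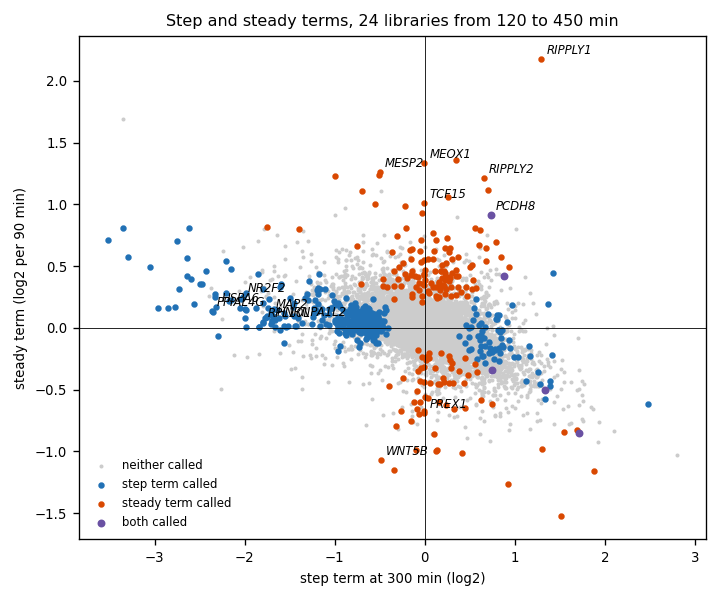
Each point is 1 of 11215 genes in the fit over 24 libraries, with its step at 300 min (log2, horizontal) and its steady change (log2 per 90 min, vertical); colours mark the terms that passed an adjusted p of 0.05. PPIAL4G, RPL10L, HNRNPA1L2, HSPA6, MAP2 and NR2F2 lie to the left, with steps from -2.37 to -1.70 and steady changes that did not pass, and RIPPLY1, MEOX1, MESP2 and TCF15 lie at the top, with steps from -0.50 to 1.30 that did not pass.

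The number of steps called depended on few libraries. Without replicate 2 at 270 min the wider fit called 13 steps higher and 137 lower, and without the 4 libraries at 270 and 300 min it called 1 and 1, while steady changes numbered 104 and 54, then 39 and 26. Between the windows without those 4 libraries 467 genes were higher and 657 lower, with 11 copies lower. Setting each time against the one before it over all 46 libraries (13653 genes), 331 genes (2.42%) passed from 270 to 300 min, 96 higher (0.703%) and 235 lower (1.72%). The next largest count among the 21 other steps was 41, from 510 to 540 min, and then 24, from 450 to 480 min. From 300 to 330 and from 330 to 360 min edgeR called 0 genes, with 513 and 361 at an unadjusted p under 0.05, and no other tool was run on single steps. With a single library left at 270 or 300 min, assumed to vary like the others, the 331 became 2 higher and 0 lower without 270 min replicate 2, 12 and 4 without 300 min replicate 1, 10 and 28 without 300 min replicate 2, and 49 and 128 without 270 min replicate 1.

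**Figure D5:**
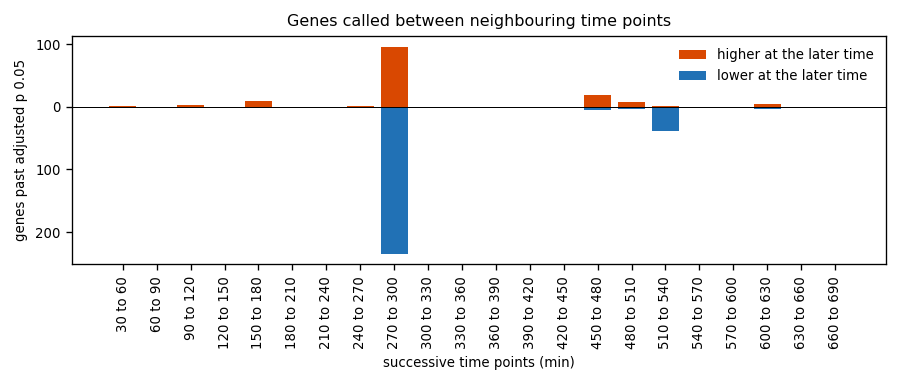
Number of genes past an adjusted p of 0.05 between neighbouring time points, drawn upward for genes higher and downward for genes lower at the later time; the axis counts genes. The bar from 270 to 300 min holds 96 higher and 235 lower genes, and the next largest holds 41.

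When the copy index was entered as a covariate for the 12 libraries, 9 genes were higher and 4 lower between the windows in place of 659 and 1003. The index and the window are correlated at -0.928, and the median standard error grew 2.63 times, so that the loss of a call and the loss of precision cannot be told apart. The 13 that passed include PCDH8 (log2 2.57, SE 0.45, adjusted p = 0.0311), RIPPLY2 (3.04, adjusted p = 0.0355), MEOX1 (2.56, adjusted p = 0.0359) and TCF15 (2.12, adjusted p = 0.0355), and downward WNT5B (-2.06), IL17RD (-2.20) and UNC5C (-3.28), a netrin receptor (adjusted p = 0.0355 each). Named neural genes lay on both sides of 0, and none passed. Above 0 were STMN2 (0.53, adjusted p = 0.817), PAX6 (0.48), GPM6A (0.15), EEF1A2 (0.13) and SOX2 (0.04). NES, already higher without the index, was at 0.87 (adjusted p = 0.53). Below 0 were MAP2 (-0.11), DAB1 (-0.30), NR2F1 (-0.88) and ZIC1 (-1.63). Of these genes, all but STMN2 and NES had an adjusted p of 0.923 or more. The index is made of the copies themselves, so their own values under it say nothing.

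The same genes were looked at in libraries outside the windows. Between 120 to 180 and 390 to 450 min, 12 libraries, 2551 of 11302 genes passed (22.6%; 10.8% higher, 11.8% lower). Of the 659 genes higher between the windows 441 (67.1% of those tested) were higher here and none lower, and of the 1003 lower 752 (75.4%) were lower and 1 higher. Of the 231 with a step down 202 (87.4%) were lower, and of the 30 with a step up 15 (50%) were higher. PCDH8 rose by 3.37 log2 and PPIAL4G fell by 2.14 (adjusted p = 5.10e-13 and 1.57e-06). Between Day2 and Day3, where 22.6% of 12765 genes passed (11.6% higher, 11% lower), MEOX1 and TCF15 were higher at Day3 (10.3 and 7.05 log2, adjusted p = 2.72e-09 and 9.76e-07) and T lower (-6.40, adjusted p = 1.21e-07), as between the windows. Of the genes higher between the windows 274 (41.9% of those tested) were higher at Day3 and 26 lower. Of those lower 587 (58.5%) were lower and 4 higher. RIPPLY2 had a mean of 0 CPM on each day, and MESP2 had 0 at Day2 and 0.117 at Day3, too low to compare. PCDH8 did not differ beyond error there (34.3 ± 15.6 CPM at Day2 and 32.3 ± 15.9 at Day3, SD, n = 3; edgeR adjusted p = 0.933), and SOX9 was lower at Day3 (-1.20, adjusted p = 0.0286). The copies PPIAL4G and HNRNPA1L2 were lower at Day3 (-1.74 and -1.29, adjusted p = 0.0214 and 0.0327), and RPL10L did not pass (-1.28, adjusted p = 0.0542).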

How the data were processed

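RNA-seq libraries were made from total RNA with LM-seq, per the labels. The authors deposited expected counts for 19084 genes and, in a second table, rescaled TPM values, per the file headers. The aligner Bowtie 0.12.2 is named, as are hg19 and mm8 with no role, per the submitters' processing notes. Which program made the counts, whether it used strand, the annotation and what mm8 served for: not given in the sources used here. Sequences come from another build (GRCh38), so no gene positions in the files' build are printed.

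Expected counts were rounded and tested with edgeR 4.0.16 in R 4.3.3 (TMM, filterByExpr, quasi-likelihood F test, Benjamini-Hochberg adjustment at 0.05), and checked on simulated data. The 12 window libraries gave the window difference and the step and steady terms, and all 46 course libraries the successive steps. The members, gene lists and copies were chosen with earlier results of these data known. Named genes were the 10 largest called rises and falls between windows at 10 CPM or more without overlap, the 8 largest steps and steady changes each way at 10 CPM or more, up to 3 called members per list by smallest adjusted p, up to 6 called copies with parents, and a set of stage genes; WNT5B, IL17RD, NR2F2, UNC5C, AXIN2, CDX1, PHLDA1, CDH11, CRMP1, NCAM1, HES1, RBPJ, SOX1, RPS2, FLJ44635 and the copies beyond these 6 were named after their values were seen. Of 26 symbols built like a copy of a listed gene, 1 that RefSeq lists as a pseudogene was kept, a restriction made after the files were read. Coding words are of 31 bases and were found for 17594 genes. DESeq2 1.42.0 and limma 3.58.1 on log2(TPM + 1) and log2(TPM + 0.1) were among the alternatives. Replicates correlated at r 0.949 to 0.969 across genes, and none was a duplicate (chi-square per degree of freedom at least 4.15). The list of long nuclear RNAs had 0 members in the table. Results of 2 genes that these rules name are not reported here.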

Additional observations from a re-analysis of the deposited data

Results flagged for a closer look

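In 10 of 224 windows of 6 libraries examined for named genes and library measures, a library stood far from the 5 others (gap to its neighbour over the range, past Dixon's critical value for 6); chance flags about 5% of such groups. Replicate 2 at 360 min was that library for TBX6 (21.9 against a late median of 43.6 CPM, ratio 0.707), ABCB5 (26.9 against 10.9 CPM, 0.686), H3F3C (23.3 against 11.7 CPM, 0.666) and the number of genes detected (0.701). Replicate 2 at 330 min was it for CYR61 (104 against 80.7 CPM, 0.771) and SUMO4 (5.4 against 2.66 CPM, 0.703). At 300 min it was replicate 1 for CENPE (263 against 312 CPM, 0.835) and replicate 2 for TPI1 (965 against 690 CPM, 0.807). In the earlier window it was 240 min replicate 2 for RPL10 (455 against 379 CPM, 0.698) and 210 min replicate 1 for the total of counts (4.69 against 3.53 M, 0.658).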

How the results depend on the processing

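Scaling by RLE, DESeq2, no low-count filter and the fit over 46 libraries left the counts of window calls within 1.5 times. With limma 642 genes on log2(TPM + 1) and 613 on log2(TPM + 0.1) were lower in place of 1003, with 933 and 900 higher in place of 659, so the share of lower calls turned from the larger to the smaller; the cause was not tested. Without the 270 and 300 min libraries 657 were lower. At 2-fold or more 69 were higher and 165 lower, and 136 steps down, 1 steady fall, and 37 and 88 genes from 270 to 300 min remained past the limit.

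The step term gave 84 higher and 360 lower genes with DESeq2, 120 and 383 without the low-count filter (208 higher from 270 to 300 min), 18 and 53 with log2(TPM + 1), 12 and 43 with log2(TPM + 0.1), and 71 higher in the 24 libraries. The steady term gave 11 higher with DESeq2, 22 higher and 19 lower without the filter, 1 and 0 with either limma setting, and 124 and 67 in the 24 libraries. Without 270 min replicate 2 these 24 gave 13 and 137 steps and 104 and 54 steady changes, and without 270 and 300 min 1 and 1 steps and 39 and 26 steady changes.

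Same-numbered replicates do not pair: over 15 pairs of time points the correlation of deviations was -0.0748 to 0.0416. With the replicate block the step term called 19 genes higher in place of 30, and no other count of calls moved by over 1.5 times (615 and 962 genes between the windows).

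Leaving out each library in turn gave 480 to 690 higher and 813 to 1039 lower genes between windows, 12 to 13 copies lower, 4 to 72 steps up and 52 to 245 down (fewest without 270 min replicate 2), 0 to 6 steady rises and 0 to 2 steady falls, and 2 to 49 higher and 0 to 128 lower genes from 270 to 300 min.

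Entering the copy index as covariate left 9 higher and 4 lower genes between the windows, 0 copies lower, 0 steps up, 0 down and 0 steady falls. The index is the mean of these copies, so their own values are fixed by it. The log2 difference of 23 named genes changed sign there, all with an adjusted p of at least 0.817. Falls turned to 0.25 for ABCB5, 0.24 for ATP5B, 0.13 for EEF1A2, 1.38 for EML5, 0.15 for GPM6A, 0.039 for H3F3C, 0.094 for HNRNPA1L2, 0.086 for HSP90AB1, 0.16 for HSPA8, 0.53 for PABPC3, 0.48 for PAX6, 0.84 for PGK2, 0.075 for PPIA, 0.20 for RPL30, 0.025 for RPL5, 0.036 for SOX2, 0.036 for SPRED1, 0.53 for STMN2 and 0.099 for SUMO2. Rises turned to -0.44 for COX8A, -0.084 for DLL1, -0.077 for LFNG and -0.23 for NPIPL3. Outside this setting no named gene that passed changed sign. About 4 M counts a library leave genes under about 1 CPM unresolved.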

Other observations

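Levels of 3 genes that dropped at 300 min varied before and after it too. HSPA6, a heat shock gene, stood at 23.4 CPM at 30 min, the mean of 2 libraries, at 213 at 150 min, at 95.6 at 210 min and at 171 at 270 min, then at 34.4 at 300 min, with later means of 59.3 at 450, 40.2 at 480, 59.9 at 510 and 88.2 CPM at 600 min. STMN2 had 55.8, 300 and 77.9 CPM at 30, 150 and 300 min, and 112, 81.4, 108 and 116 CPM at 450, 480, 510 and 600 min. RPL10L had 43.0, 266 and 63.7 CPM at the first 3 of these times. The later means joined unlike libraries. HSPA6 had 94.9 and 25.0 CPM in replicates 1 and 2 at 510 min, and 39.4 and 137 CPM at 600 min. STMN2 had 141 and 74.6 CPM at 510 min, and 75.9 and 156 CPM at 600 min. At these 2 times the means do not show a change shared by both libraries.

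Of the 231 genes with a step down between 270 and 300 min, 218 had a coding sequence to examine. Of these 169 shared no 31-base word with another listed gene (77.5%) and 13 shared over 10% (5.96%), against 86.8% and 4.04% of all tested genes with a sequence. FLJ44635, an uncharacterised gene chosen after its values were seen, was among those with no value; it went from a median of 92.6 to 28.2 CPM between the windows (edgeR adjusted p = 3.65e-09) and its step was -2.16.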
